A study of Homo sapiens with 47 samples.

Results

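MT-TS2, MT-TF and MT-TP are the genes of 3 mitochondrial transfer RNAs (tRNAs): those for serine (AGY codons), phenylalanine and proline. They were chosen by the spread of their counts over the cells of this series, so that spread is described here and not tested. They are 3 of the 22 mitochondrial tRNA genes listed in the table and 3 of its 18651 endogenous gene rows. The cells are 47 single cells of HEK293, an established line grown from human embryonic kidney and carrying adenovirus genes, from 1 run with no treatment, so there are no groups to compare. What was counted is the unique molecular identifier (UMI), a random tag that marks the 5′ end of each cDNA copied from an oligo-dT primer. Cells are named by the number in their labels.

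The mitochondrial genome is copied from both strands into long transcripts that carry many genes each. Most mRNAs and both rRNAs in them are flanked by tRNAs, and the tRNAs are cut out by RNase P at their 5′ ends and by ELAC2 at their 3′ ends, which frees the flanking RNAs as well. TRNT1 then adds the CCA end on which an amino acid is loaded. MT-TF is the first gene after the noncoding control region and precedes MT-RNR1, the small ribosomal RNA. MT-TS2 lies between MT-TH and MT-TL2, in the gap between the complex I mRNAs MT-ND4 and MT-ND5, and its tRNA lacks the D arm of the usual cloverleaf. MT-TP is read from the opposite strand and lies on the other side of the control region, next to MT-TT and near MT-CYB, the cytochrome b mRNA.

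The gene sequences show which molecules are meant and which runs of A they hold, since the cDNA was primed with oligo-dT. They are printed 5′ to 3′ in DNA letters on the strand of the tRNA, from the GENCODE release 29 transcripts, in which all 22 tRNA symbols were matched. Capitals mark the anticodon, which starts at base 20 of MT-TS2, 35 of MT-TF and 32 of MT-TP, counted from 1 at the 5′ end.
MT-TS2: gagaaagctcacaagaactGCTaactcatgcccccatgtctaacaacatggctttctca
MT-TF: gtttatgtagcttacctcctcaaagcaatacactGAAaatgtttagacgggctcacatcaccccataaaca
MT-TP: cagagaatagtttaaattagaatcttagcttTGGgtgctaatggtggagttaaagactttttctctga
The longest run of A was 3 bases in MT-TS2, 4 in MT-TF and 3 in MT-TP, against 2 to 6 (median 4) in the other 19 tRNAs. MT-TS2 was the shortest of the 22 with 59 bases. MT-TF had 71 bases and MT-TP 68, against 65 to 75 (median 69) in the others. GC content was 45.8% in MT-TS2, 40.8% in MT-TF and 33.8% in MT-TP, against 23.1% to 49.3% (median 38.7%) in the others. A UMI assigned to a tRNA gene can come from a mature tRNA, a precursor, a fragment or an RNA of the opposite strand, and these cannot be told apart in the counts, since the use of strand was not given in the sources used here.

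Cells held between 29325 and 138647 endogenous UMIs, with a median of 59689, and between 2573 and 4717 spike-in UMIs, with a median of 3550. No 2 of the 47 cells had identical counts. The line's markers were present: NEFL had 112 UMIs, NEFM 462 and UCHL1 817, the last in all 47 cells. Of markers of other cell types, NPHS1 (podocytes) had 1 UMI and COL1A1 and COL1A2 (fibroblasts) had 12 and 1, and the rest are not reported here. Cell 52 stood apart with 12.1% of its endogenous UMIs in mitochondrial mRNAs, against a median of 3.11% over all cells. Values that it moved are given with and without it.

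The 3 genes held 7531 of the 9112 UMIs of all mitochondrial tRNA genes, or 82.6%. All 22 together were 0.312% of the endogenous UMIs, against 93091 UMIs in the 13 mitochondrial mRNAs and 58318 in the 2 rRNAs. MT-TP had 3224 UMIs, MT-TF 2238 and MT-TS2 2069. Among the other 19, MT-TE (glutamate) had 296, MT-TM (methionine) 224, MT-TC (cysteine) 215, MT-TY (tyrosine) 191, MT-TL1 (leucine UUR) 120 and MT-TV (valine) 108. MT-TH (histidine) had 86, MT-TR (arginine) 62, MT-TL2 (leucine CUN) 55, MT-TK (lysine) 46, MT-TG (glycine) 45, MT-TT (threonine) 41, MT-TI (isoleucine) 33 and MT-TS1 (serine UCN) 32. MT-TQ (glutamine) had 11, MT-TD (aspartate) 10, MT-TN (asparagine) 4 and MT-TW (tryptophan) 2, and MT-TA (alanine) had 0.

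Genes that adjoin each other differed in level. MT-TS2 had 2069 UMIs over all cells, against 86 for MT-TH on its 5′ side and 55 for MT-TL2 on its 3′ side. MT-TP had 3224 UMIs, against 41 for MT-TT, which adjoins it and is read from the other strand. MT-TF had 2238 UMIs, and the highest of the other 19, MT-TE, had 296.

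MT-TS2 had a UMI in all 47 cells, with 44.02 ± 56.3 UMIs per cell (SD, n = 47 cells, not scaled for depth). The lowest count was 1, in cells 3 and 23, the median was 22, and the highest was 283, in cell 55. Per 10000 endogenous UMIs its level was 0.180 in the lowest cell, 4.49 at the median and 46.9 in the highest cell. The distribution had a long upper tail: the upper quartile of the scaled level was 3.28 times the lower. The 5 cells with the highest scaled level held 853 of the 2069 UMIs, or 41.2%.

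MT-TF also had a UMI in all 47 cells, with 47.6 ± 51.01 UMIs per cell. The lowest count was 4, in cells 10 and 23, the median was 34, and the highest was 245, in cells 2 and 55. Per 10000 endogenous UMIs its level was 1.23 at the lowest, 5.55 at the median and 40.6 at the highest. Its upper tail was made of fewer cells: cells 55 and 2 had 40.6 and 35.7 UMIs per 10000, and the third, cell 56, had 16.7. The 5 cells with the highest scaled level held 35.5% of its UMIs.

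MT-TP had a UMI in 46 cells, with 68.6 ± 55.8 UMIs per cell. The count was 0 in cell 10, the median was 57, and the highest was 202, in cell 55. Per 10000 endogenous UMIs its level was 8.38 at the median and 33.5 at the highest. It was the most abundant of the 3 and the most even at the top. Its 5 highest cells by scaled level held 26.6% of its UMIs. Its low end reached further, with 4 UMIs in cell 15, 2 in cell 31, 1 in cell 23 and 0 in cell 10. These cells had few endogenous UMIs, at 42286, 31384, 29325 and 32527 in that order, against a median of 59689. The ratio of the upper to the lower quartile was similar in the 3 genes, at 3.28, 3.16 and 3.06, against 1.52 in MT-ND4, 1.48 in MT-ND5, 1.37 in MT-CYB, 1.51 in MT-RNR1 and 1.32 in MT-RNR2.

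**Figure D1:**
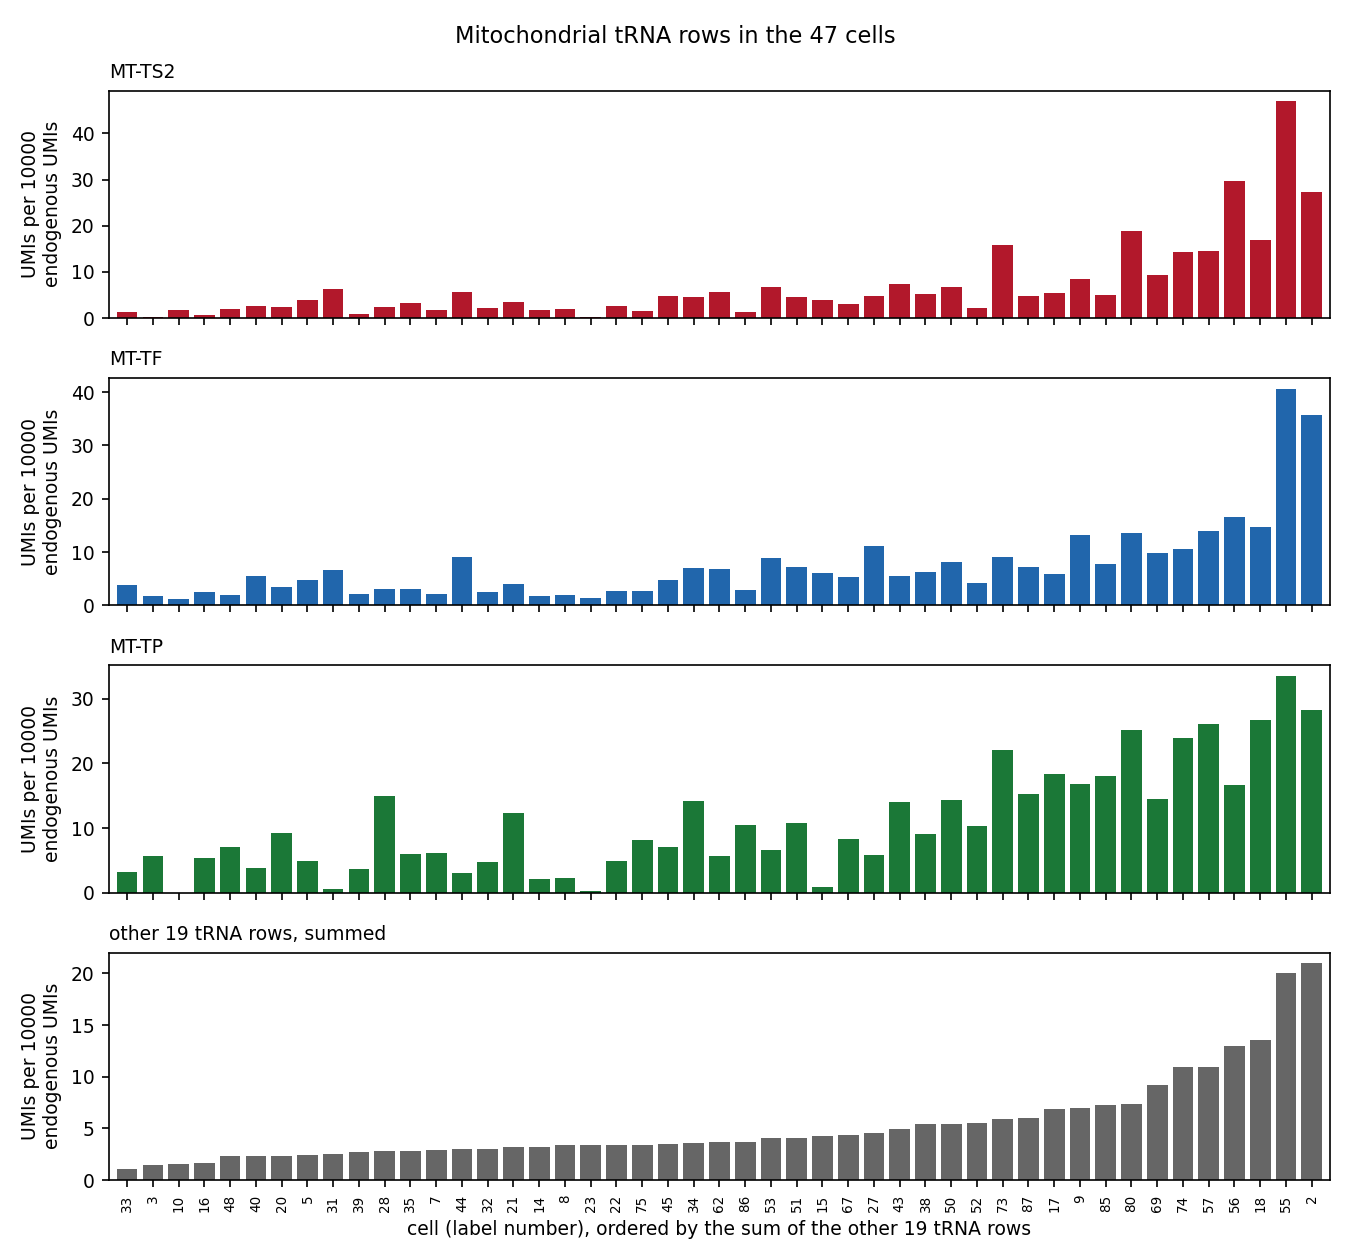
Level of MT-TS2, MT-TF, MT-TP and the summed other 19 mitochondrial tRNA genes, in UMIs per 10000 endogenous UMIs (y axis), in each of the 47 cells (x axis, ordered by the summed other 19 genes). Each bar is 1 cell; the highest bars of the upper 3 panels stand at the right, with 46.9, 40.6 and 33.5 in cell 55, and MT-TP is at 0 in cell 10.

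The index of dispersion sets a gene's counts against those that the cells' endogenous totals would give, and is 1 where counting error alone acts. It was 66.8 for MT-TS2, 47.5 for MT-TF and 36.4 for MT-TP, which ranked 4, 7 and 10 among the 9088 genes with at least 20 UMIs. These values are among those the genes were chosen on. Just above MT-TP stood MT-ND2, a complex I mRNA, with 38.2, and just below it MALAT1, a nuclear long noncoding RNA, with 36.3. The only gene outside the mitochondrial rows with an index of at least that of MT-TP was the histone gene HIST1H4C, with 141. The median over the 9088 genes was 2.00. The 8 spike-ins of like abundance, with 1000 to 5000 UMIs, had 1.48 to 2.59 with spike-in totals as depth, and at most 7.01 with endogenous totals as depth.

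A few cells weighed heavily in these values. Without cells 2 and 55, the index was 35.3 for MT-TS2 and 15.5 for MT-TF. Without cell 55 alone it was 42.7 for MT-TS2, 32.1 for MT-TF and 32.4 for MT-TP. Among the other tRNA genes with at least 20 UMIs the index was highest in MT-TY with 7.51, MT-TE with 7.45, MT-TC with 5.92, MT-TM with 5.01 and MT-TH with 4.44. The index grows with abundance for a given relative spread, and these genes have fewer UMIs. The relative spread beyond counting error, as a coefficient of variation, was 1.22 in MT-TS2, 0.988 in MT-TF and 0.719 in MT-TP, against 1.27 in MT-TY, 1.01 in MT-TE, 1.04 in MT-TC, 0.918 in MT-TM and 1.37 in MT-TH. These 5 were picked for their high index. Of the other tRNA genes with over 100 UMIs, MT-TL1 had 0.434 and MT-TV 0.602, and of those with fewer, MT-TI had 1.42, MT-TK 1.28, MT-TT 0.863, MT-TL2 0.7504, MT-TR 0.740, MT-TG 0.574 and MT-TS1 0. The relative spread of the 3 thus lay within the range of the other tRNA genes.

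**Figure D2:**
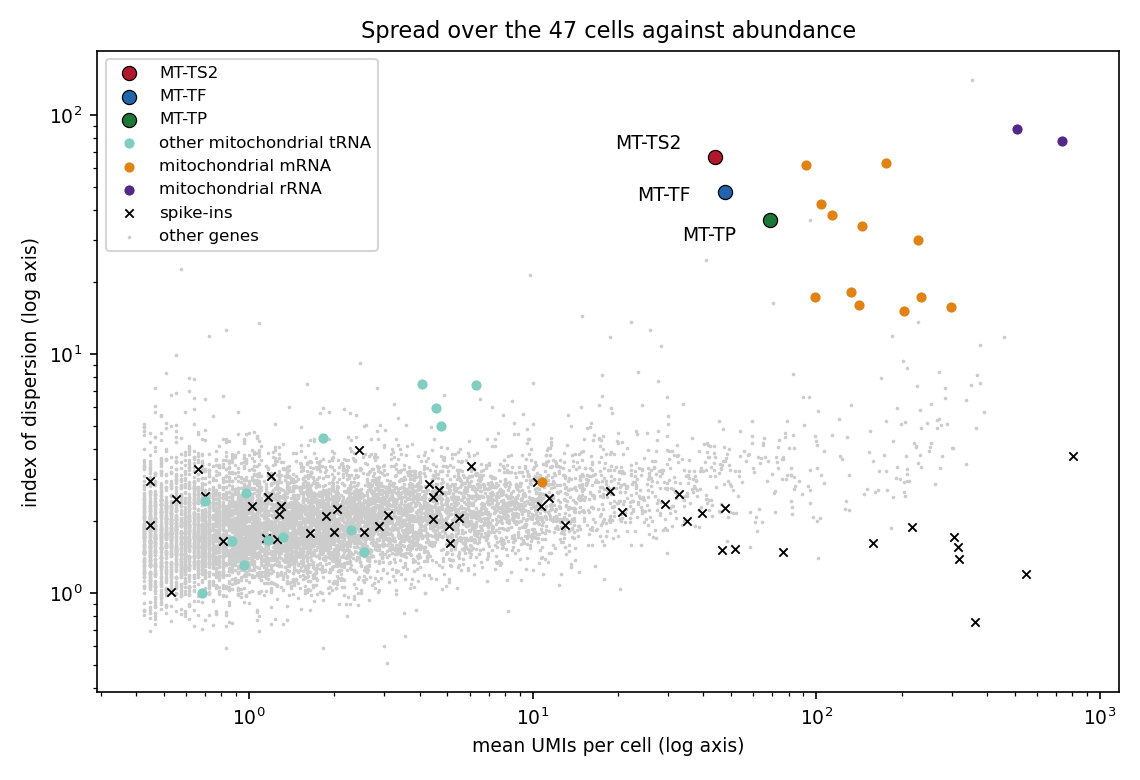
Index of dispersion (y axis, log scale) against mean UMIs per cell (x axis, log scale) for genes with at least 20 UMIs, with 1 point per gene, colours for the mitochondrial classes and crosses for spike-ins. MT-TS2, MT-TF and MT-TP, at 66.8, 47.5 and 36.4, lie beside the mitochondrial mRNAs and above the grey points of other genes other than HIST1H4C, at 141. MALAT1, at 36.3, lies just below MT-TP, and the median of the grey points is 2.00.

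Counted against the mitochondrial RNA of the cell, the 3 tRNAs spread nearly as widely as before. When expected counts were made proportional to the cell's UMIs in mitochondrial rRNAs and mRNAs, the index was 59.1 for MT-TS2, 38.98 for MT-TF and 31.7 for MT-TP. For the longer RNAs near them, with the gene itself left out of that total, it was 10.5 for MT-ND4, 11.96 for MT-ND5, 8.22 for MT-CYB, 41.7 for MT-RNR1 and 35.2 for MT-RNR2. By endogenous totals these 5 had had 63.4, 62.1, 30.2, 87.2 and 77.8. The index grows with abundance, and MT-RNR1 and MT-RNR2 had 23891 and 34427 UMIs. The relative spread of the 5 beyond counting error, by endogenous totals and with cell 52, was 0.595, 0.814, 0.357, 0.412 and 0.324. In MT-TS2, MT-TF and MT-TP it was 1.22, 0.988 and 0.719. For an mRNA the mitochondrial total also holds the other mRNAs, with which it is correlated, so a lower index is partly built in.

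Cell 52 carried much of the spread of the longer RNAs, and the index of the tRNAs moved little without it. Leaving it out, the index by endogenous totals was 67.5 for MT-TS2, 48.2 for MT-TF and 37.2 for MT-TP, at ranks 2, 4 and 6. It was then 17.1 for MT-ND4, 12.6 for MT-ND5, 16.1 for MT-CYB, 57.8 for MT-RNR1 and 42.6 for MT-RNR2. Per mitochondrial RNA, again without cell 52, it was 56.7 for MT-TS2, 37.1 for MT-TF and 29.9 for MT-TP, against 7.31 for MT-ND4, 6.00 for MT-ND5, 8.35 for MT-CYB, 42.4 for MT-RNR1 and 34.9 for MT-RNR2.

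The 3 tRNAs were high in the same cells. Spearman's rho over the 47 cells, on log2(1 + UMIs scaled to the median total), was 0.922 between MT-TS2 and MT-TF, 0.682 between MT-TS2 and MT-TP and 0.687 between MT-TF and MT-TP. These are descriptions over cells that share a pooled library and a run. In the 17 cells with label numbers above 48 the values were 0.961, 0.730 and 0.789, and in the 30 with numbers up to 48 they were 0.896, 0.521 and 0.495. The 13 mitochondrial mRNAs had a median rho of 0.582 among themselves (78 pairs, 0.226 to 0.841), and 0.554 without cell 52.

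MT-TS2 and MT-TF kept a steadier ratio to each other than to MT-TP, though they lie far apart on the genome. Taking their summed UMIs as the depth of a cell, the index of the pair was 3.30, against 9.86 for MT-TS2 with MT-TP and 8.51 for MT-TF with MT-TP. The 28 pairs of the spike-ins of like abundance gave 1.24 to 2.64, all lower than these. MT-TS2 made up 45.3% of the pair's UMIs in the median cell, with quartiles of 38.2% and 50%, 9.09% in cell 3 (1 UMI against 10) and 64.1% in cell 56 (193 UMIs against 108). The pair index grows with abundance, so the SD of the log2 ratio over cells (0.5 added to each count) is the fairer measure against longer RNAs. It was 0.70 for MT-TS2 with MT-TF, 1.43 for MT-TS2 with MT-TP and 1.23 for MT-TF with MT-TP. Against a flanking longer RNA it was 1.60 for MT-TS2 with MT-ND4, 1.68 for MT-TS2 with MT-ND5 and 1.60 for MT-TP with MT-CYB, but 1.02 for MT-TF with MT-RNR1, below both ratios that hold MT-TP.

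Of the 10 highest cells of each gene by scaled level, 7 were common to all 3: cells 2, 9, 18, 55, 57, 74 and 80. MT-TS2 and MT-TF shared 9 of 10, MT-TS2 and MT-TP 8, and MT-TF and MT-TP 7. At the low end 4 of 10 were common to all 3: cells 10, 14, 23 and 39. Cell 55 had 283 UMIs of MT-TS2, 245 of MT-TF and 202 of MT-TP, and cell 2 had 187, 245 and 194. Cell 56 had 193, 108 and 108, which placed it at ranks 2, 3 and 11.

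Some cells set MT-TP apart from the other two. Cell 31, a shallow cell with 31384 endogenous UMIs, had 20 UMIs of MT-TS2 (rank 14) and 21 of MT-TF (rank 20) but 2 of MT-TP (rank 45). Cell 44 had 28 and 46 UMIs of MT-TS2 and MT-TF (ranks 16 and 11) and 15 of MT-TP (rank 41). Cell 3 went the other way, with 1 UMI of MT-TS2 (rank 47) and 10 of MT-TF (rank 44) but 32 of MT-TP (rank 32).

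**Figure D3:**
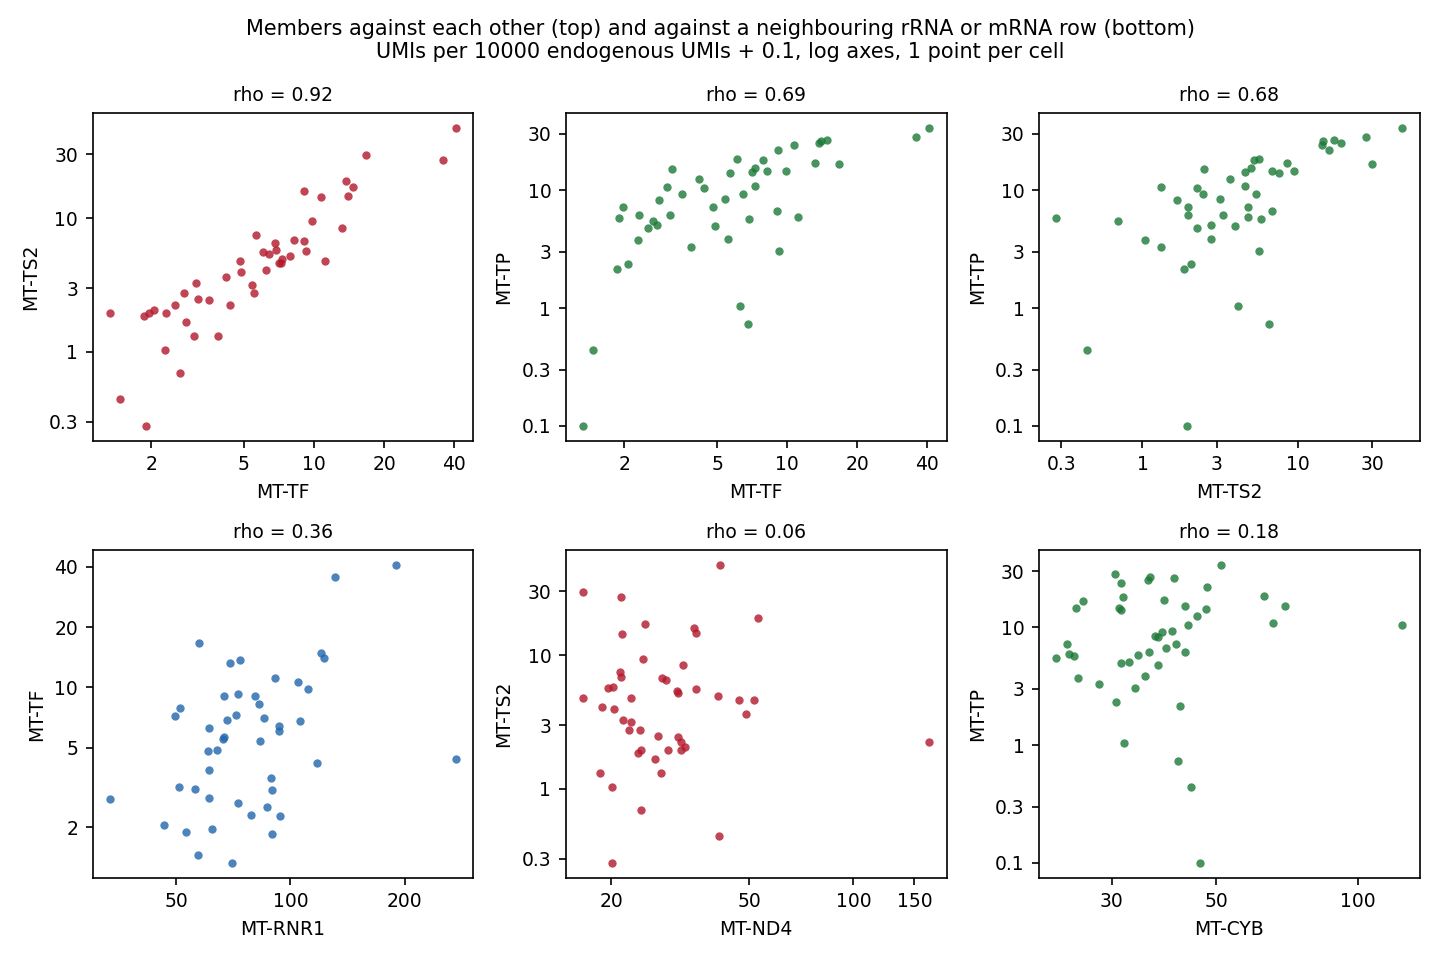
Top row, MT-TS2, MT-TF and MT-TP against each other; bottom row, each against a neighbouring rRNA or mRNA, in UMIs per 10000 endogenous UMIs plus 0.1, on log axes, with 1 point per cell (47 cells). Points follow a line in the top left panel (rho 0.922) and form a wide cloud for MT-TS2 with MT-ND4 (rho 0.0563) and MT-TP with MT-CYB (rho 0.180).

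The other 19 tRNA genes, taken as a sum, were high in the same cells. Their summed level had a rho of 0.790 with MT-TS2, 0.791 with MT-TF and 0.778 with MT-TP. In cells with label numbers above 48 the values were 0.777, 0.868 and 0.873, and in those up to 48 they were 0.711, 0.596 and 0.483. The 7 cells common to the 3 genes' 10 highest were also all among the 10 highest of the summed other tRNAs. Cells 2 and 55 led that sum, with 20.97 and 20.1 UMIs per 10000 endogenous UMIs, against a median of 3.64.

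The relation held for tRNAs of either transcript. With the 7 other tRNA genes read in the direction of MT-TP (749 UMIs), rho was 0.761 for MT-TS2, 0.727 for MT-TF and 0.658 for MT-TP. With the 12 others read in the direction of MT-TS2 and MT-TF (832 UMIs), it was 0.618, 0.617 and 0.648. Thus MT-TP had about the same rho with tRNAs of its own transcript as with those of the other, and MT-TS2 and MT-TF had a higher one with tRNAs of the transcript they are not part of. These differences were not tested.

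Over all genes with at least 20 UMIs, 0.121% had a rho of at least 0.5 with MT-TS2, 0.110% with MT-TF and 0.121% with MT-TP, a threshold chosen after the values were seen. Of the 14 other tRNA genes with at least 20 UMIs, 4 were past it with each of the 3: MT-TY, MT-TC, MT-TE and MT-TM. MT-TY had a rho of 0.680 with MT-TS2, 0.681 with MT-TF and 0.643 with MT-TP, and MT-TE 0.603, 0.595 and 0.645. MT-TC had 0.650, 0.577 and 0.505, and MT-TM 0.576, 0.589 and 0.549. The median of the 14 was 0.404 with MT-TS2, 0.412 with MT-TF and 0.424 with MT-TP, against 0.0257, 0.0335 and 0.0251 over all genes. MT-TK, with 46 UMIs, was the lowest of the 14, at -0.0563, -0.0879 and 0.0280. None of the 13 mitochondrial mRNAs was past 0.5 with any of the 3.

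MT-TF and MT-TP face each other across the control region, and MT-TF was the nearest of all genes to MT-TP in pattern (rho 0.687). Other neighbours were less alike. MT-TS2 had a rho of 0.473 with MT-TH and 0.327 with MT-TL2, the tRNA genes on its sides, 0.0563 with MT-ND4 upstream and 0.0840 with MT-ND5 downstream. MT-TF had 0.362 with MT-RNR1, which follows it, and -0.110 with MT-CYB, the nearest mRNA across the control region. MT-TP had 0.283 with MT-TT, 0.180 with MT-CYB and 0.361 with MT-RNR1. MT-TH, MT-TL2 and MT-TT had 86, 55 and 41 UMIs over all cells, and at such counts a weak rho is no finding.

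The 3 genes had no strong relation to the longer mitochondrial RNAs as a class. With the summed mRNAs rho was 0.0983 for MT-TS2, 0.113 for MT-TF and 0.289 for MT-TP, and with the summed rRNAs it was -0.00497, 0.0261 and 0.0168. Over the 39 pairs of the 3 tRNAs with the 13 mRNAs the median was 0.155, and the range ran from -0.110 to 0.483. The highest mRNA was MT-ATP6 (ATP synthase) with 0.207 for MT-TS2, MT-CO3 (complex IV) with 0.215 for MT-TF and MT-ND1 (complex I) with 0.483 for MT-TP. The rRNAs went in different directions. MT-RNR1 had 0.334, 0.362 and 0.361 with MT-TS2, MT-TF and MT-TP, and MT-RNR2, the large ribosomal RNA, had -0.238, -0.203 and -0.247.

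**Figure D4:**
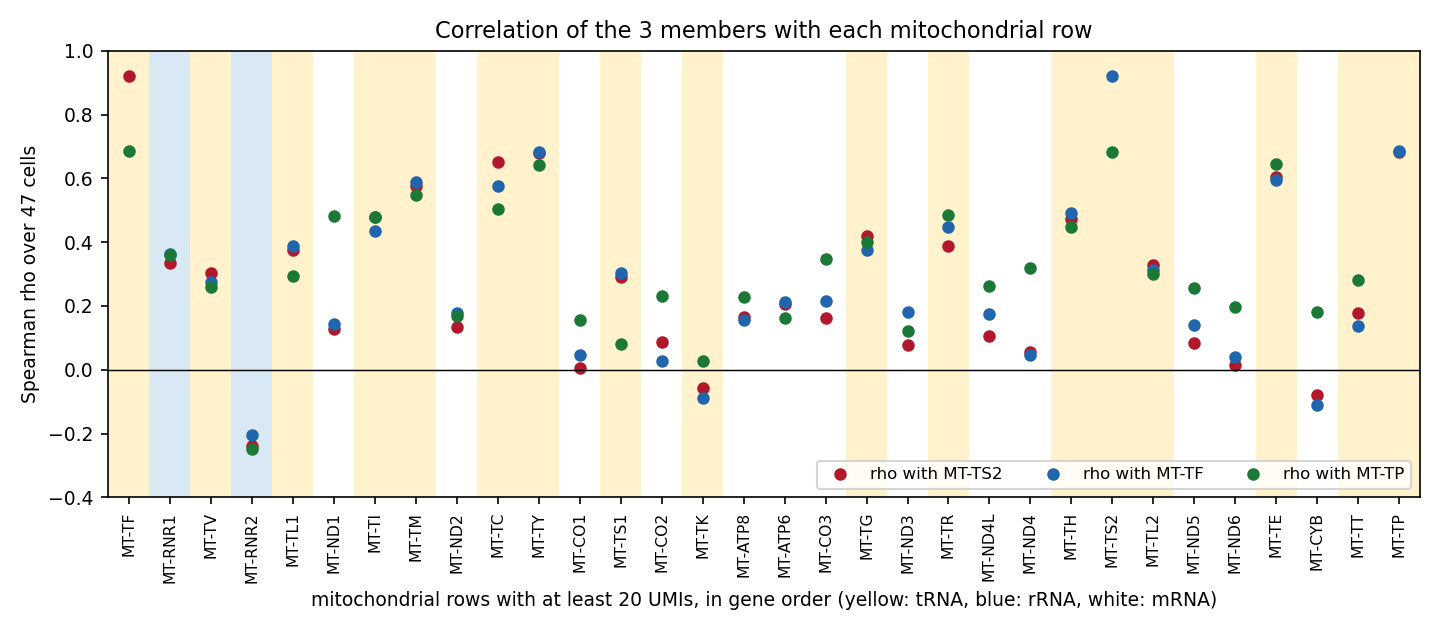
Spearman's rho over 47 cells (y axis) of MT-TS2, MT-TF and MT-TP with each mitochondrial gene of at least 20 UMIs, in genome order (x axis, with tRNAs on yellow, rRNAs on blue and mRNAs on white). The points rise over tRNAs such as MT-TY (0.643 to 0.681) and MT-TE (0.595 to 0.645) and lie lower over mRNAs, where the highest is 0.483 for MT-TP with MT-ND1.

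Some cells were high in one class and not in the other, and some were high in both. Cell 52 was first in MT-ND4, MT-ND5, MT-CYB, MT-RNR1 and MT-RNR2, with 165 UMIs of MT-ND4 per 10000 endogenous UMIs against a median of 26.6. It had only 2.14 UMIs per 10000 of MT-TS2 (rank 34), 4.28 of MT-TF (rank 29) and 10.4 of MT-TP (rank 21). Cell 56, at rank 2 in MT-TS2 with 29.8, was last in MT-ND5 with 6.01 and second to last in MT-ND4 with 16.5. Cell 2 had 2.76% of its endogenous UMIs in mitochondrial mRNAs (rank 32), and cell 55, first in all 3 tRNAs, had 4.50% (rank 5) and was at rank 2 in MT-RNR1 and 4 in MT-RNR2. Cell 80, at ranks 4, 6 and 5 in MT-TS2, MT-TF and MT-TP, was at rank 2 in MT-ND4 and 3 in mitochondrial mRNA share.

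By rank, depth was weakly related to the 3 genes. Spearman's rho with the endogenous UMIs of the cell was 0.162 for MT-TS2, 0.185 for MT-TF and 0.121 for MT-TP, and with spike-in UMIs 0.257, 0.338 and 0.157. Pearson's r on log2 values was 0.149, 0.210 and 0.343 with endogenous UMIs and 0.232, 0.356 and 0.329 with spike-in UMIs. With the number of genes detected it was 0.206, 0.280 and 0.444. The lowest cells in scaled MT-TP, cells 10, 23 and 31, were shallow, with 32527, 29325 and 31384 endogenous UMIs. After each cell was thinned to 29325 UMIs, MT-TS2 had 1 to 126 UMIs (median 12), MT-TF 3 to 125 (median 16) and MT-TP 0 to 94 (median 25). The 3 genes also moved with label number, with a rho of 0.329, 0.379 and 0.403. The median per 10000 endogenous UMIs was 6.70 in the 17 cells above 48 and 2.93 in the 30 up to 48 for MT-TS2, 8.12 and 3.93 for MT-TF, and 14.5 and 5.81 for MT-TP. The ranges of these cells overlapped, and the other 19 tRNA genes had 5.91 and 3.12. The labels do not say what the numbers stand for, and their part in the results was not tested beyond the values given within each set of cells.

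Other RNAs not known for long poly(A) tails did not share the pattern, in a comparison chosen after the data were seen. The 28S ribosomal RNA row RNA28S5 (1926 UMIs) had a rho of 0.0775 with MT-TS2, 0.0570 with MT-TF and 0.104 with MT-TP. RN7SL2, the RNA of the signal recognition particle (887 UMIs), had -0.0193, -0.0420 and 0.0178. The summed 56 small nucleolar RNA rows (436 UMIs) had -0.00902, 0.0164 and -0.132, and SCARNA22, a small Cajal body RNA (374 UMIs), had -0.200, -0.171 and 0.0626. HIST1H4C, a histone mRNA, had 0.0371, -0.0572 and -0.198.

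The nuclear genes for mitochondrial RNA, in lists by role, were close to all genes in their relation to the 3 tRNAs. Over all genes with at least 20 UMIs the median rho was 0.0257 with MT-TS2, 0.0335 with MT-TF and 0.0251 with MT-TP, with quartiles of -0.0758 and 0.131, -0.0724 and 0.137, and -0.0763 and 0.134. The list medians below lay within those quartiles, other than that of the transcription genes with MT-TP. In tRNA end processing 6 of 8 listed symbols had at least 20 UMIs. Their median was 0.0234 with MT-TS2, 0.0114 with MT-TF and 0.0182 with MT-TP. The 8 symbols include an older name of TRMT10C. At the ends of that list were ELAC2, the 3′ nuclease (-0.298, -0.348 and -0.179), and TRMT10C, a subunit of mitochondrial RNase P (0.261, 0.343 and 0.204).

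The 17 tRNA modification genes had medians of 0.0366, 0.0768 and 0.112. With MT-TS2 their extremes were NSUN2 at 0.258 and NSUN3 at -0.199, both tRNA cytosine methyltransferases. With MT-TF they were GTPBP3, which modifies the wobble base, at 0.233 and MTFMT, which formylates the initiator methionine, at -0.194. With MT-TP they were NSUN2 at 0.190 and MTFMT at -0.194.

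The transcription genes had medians of -0.0581, -0.0140 and -0.0866. Of their 11 listed symbols 10 had at least 20 UMIs, and the other is an older name of TEFM. TEFM, an elongation factor, was the highest with MT-TS2 at 0.172 and with MT-TF at 0.125, and TFAM, which packages and activates mitochondrial DNA, was the lowest at -0.240 and -0.210. With MT-TP the extremes were MTERFD2 at 0.222 and TFB2M, an initiation factor, at -0.366. The 13 RNA stability and decay genes had medians of 0.0809, 0.0509 and 0.0411. LRPPRC, which stabilises mitochondrial mRNAs, was the highest with 0.253, 0.261 and 0.397. FASTKD2, an RNA-binding protein of mitochondria, was the lowest with MT-TS2 at -0.183 and MT-TF at -0.142, and FASTK with MT-TP at -0.0946.

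The list of mitochondrial aminoacyl-tRNA synthetases, which load the amino acids, held 20 genes and had median rhos of 0.0382, 0.0222 and 0.0355. It includes QRSL1, which is not a synthetase but a subunit of an amidotransferase. KARS and GARS encode the cytosolic enzymes as well. The isoleucine enzyme IARS2 was the highest with each, at 0.447, 0.430 and 0.232. The lowest was the tyrosine enzyme YARS2 with MT-TS2 at -0.255 and MT-TF at -0.179, and the glycine enzyme GARS with MT-TP at -0.277. The enzymes for the 3 tRNAs themselves showed weak values: SARS2 with MT-TS2 -0.104 (126 UMIs), FARS2 with MT-TF 0.148 (49 UMIs) and PARS2 with MT-TP 0.0710 (23 UMIs). With counts this low a weak rho is no finding in either direction.

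Outside the mitochondrial genome 5, 4 and 5 genes with at least 20 UMIs were past 0.5 with MT-TS2, MT-TF and MT-TP. Among the 6150 genes that averaged 1 UMI per cell or more, the nearest to MT-TS2 were HOOK3, a microtubule adaptor, with 0.557 (61 UMIs), STAU1, a double-stranded RNA-binding protein, with 0.507 (187 UMIs), SPR, an enzyme of tetrahydrobiopterin synthesis, with 0.502 (77 UMIs), PPP1R9B with 0.492 and TAMM41, an enzyme of cardiolipin synthesis, with 0.488. The nearest to MT-TF were SPR with 0.549, HOOK3 with 0.504, PPP1R9B with 0.503, NOP56, a nucleolar protein, with 0.491 and BLOC1S4 with 0.488. The nearest to MT-TP were BLOC1S4, a lysosome-related organelle protein, with 0.588 (108 UMIs), GNAS, a G protein subunit, with 0.508, HNRNPR with 0.503, MBOAT2 with 0.500 and HES1, a transcription repressor, with 0.496. These are the highest values out of all 6150 and stood below those of MT-TY and of the 3 tRNAs with each other.

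Nuclear copies of mitochondrial DNA could take or give reads. The table names 28 such rows for mitochondrial mRNAs and rRNAs, 26 of them with UMIs and 2047 UMIs in all, and 0 for tRNAs. How reads that map to several places were treated was not given in the sources used here.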

How the data were processed

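The values the authors deposited are raw UMI counts in whole numbers. Per the labels' protocols, a Fluidigm C1 circuit with 96 chambers held the cells, and RNA was primed with oligo-dT, copied by template switching, amplified in 18 PCR cycles and pooled, with ERCC spike-ins at 20000 molecules per cell. The submitters' processing notes name the builds hg19 and GRCh37 and the tools STAR 2.4.0a and cutadapt 1.2.1. The annotation, UMI collapsing, strand use and cell filter are not given in the sources used here. A repeated header line, which holds column names and no counts, was left out, and all 47 columns matched a label. The reference transcripts are of another build, so no coordinates are given.

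Depth is the endogenous UMIs of a cell. The index of dispersion is the chi-square statistic of a gene's counts divided by its degrees of freedom. Spearman's rho was computed for genes of 20 or more UMIs after log2(1 + scaled UMIs), with each cell scaled to the median depth. Cells of 1 run are not replicates of a condition, so no p-value is given. Genes named are the 3, the other tRNA genes, their neighbours, the 5 mitochondrial and 5 other genes highest in rho, the 3 cognate synthetases and each list's extremes. The members, lists and comparisons were chosen with earlier results of these data known. Alternatives were other depths (including edgeR 4.0.16 TMM factors), thinning, left-out cells, label number sets, Pearson's r and a partial rho. The index and rho were tested on simulated data. Python 3.11.15, numpy 2.4.6, pandas 2.3.3 and scipy 1.17.1 were used.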

Additional observations from a re-analysis of the deposited data

How the results depend on the processing

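No paired analysis was possible because the series has 1 group and no comparison between groups. An index was taken as moved past 1.5-fold and a rho past 0.15. The rho of MT-TS2 with MT-TF stayed within these bounds under all 12 alternatives (0.893 to 0.961), as did that of MT-TS2 with the summed other tRNAs (0.711 to 0.843). Thinning lowered the index to 28.6, 25.0 and 18.8 for MT-TS2, MT-TF and MT-TP, and per mitochondrial RNA to 27.03, 23.2 and 18.2, since fewer UMIs lower an index by construction. For MT-TS2 the index was 42.7 without its highest cell, 40.1 in cells numbered up to 48 (36.04 per mitochondrial RNA) and 35.3 without cells 2 and 55, and for MT-TF it was 15.5 without those 2 cells, a setting chosen after seeing the data. Leaving out each cell in turn gave 42.7 to 68.8 for MT-TS2, 32.1 to 48.9 for MT-TF and 32.4 to 37.5 for MT-TP. In cells numbered up to 48 rho was 0.521 for MT-TS2 with MT-TP, 0.495 for MT-TF with MT-TP, and 0.596 and 0.483 for MT-TF and MT-TP with the other tRNAs. Pearson's r with a pseudocount of 0.1 was 0.514 for MT-TS2 with MT-TP and 0.611 for MT-TP with the other tRNAs. The cause was not tested. For the 9 neighbour pairs 90 of 99 values stayed within 0.15 of the reported rho. MT-TF with MT-CYB ran from -0.315 to 0.116, MT-TS2 with MT-ND4 from -0.0520 to 0.191, MT-TS2 with MT-ND5 from -0.179 to 0.182 and MT-TP with MT-CYB from -0.00634 to 0.406, so their signs are not settled. Counts under 100 UMIs limit what the less abundant tRNAs can show.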
